A study of Homo sapiens with 8 samples.

Results

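CD38 and 8 other genes of NAD metabolism (BST1, NAMPT, NAPRT, NMNAT1, NMNAT3, NADSYN1, NADK and QPRT) were followed in U-937, a human leukemia cell line that the labels call pro-monocytic. The 9 genes were chosen by symbol from the 61125 genes listed, each matched 1 identifier, and all 9 passed the filter on low counts that left 14995 genes for testing. Cells were cultured for 72 h with both compounds (LAA+ATRA), with 1 µM all-trans retinoic acid (ATRA) in DMSO, with 250 µM L-ascorbic acid (LAA) in PBS, or with the 2 solvents alone (vehicle). Each of the 4 groups had 2 RNA-seq libraries made from poly-A selected RNA, and all 8 libraries came from the same cell line. ATRA is a retinoid that drives myeloid differentiation, and LAA is vitamin C. The labels do not state that replicates are separate cultures. The p-values therefore reflect the spread among these libraries alone, and that spread may be technical. In bulk RNA, fewer cells expressing a gene and less RNA per cell cannot be told apart.

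NAD is a redox carrier and also a substrate that several enzyme families break down, so cells keep making it. It is made from tryptophan, where QPRT supplies nicotinic acid mononucleotide, from nicotinic acid, where NAPRT makes the same intermediate, and from nicotinamide, where NAMPT makes nicotinamide mononucleotide. NMNAT enzymes add the adenylyl group, NADSYN1 amidates the nicotinic acid form to NAD, and NADK phosphorylates NAD to NADP. CD38 and its relative BST1 (CD157) are surface enzymes that cleave NAD and form cyclic ADP-ribose, a calcium messenger. CD38 is an established retinoid target in myeloid cells, with a retinoic acid response element described in the first intron.

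Library totals ran from 18462552 to 24166770 estimated counts, and 3 counts equalled 0.124 to 0.162 CPM (counts scaled to library size, with TMM factors). The myeloid label held: 15 of 16 myeloid markers were above 1 CPM in every library, with MPO the exception at 0.158 to 0.839 CPM. Summed over these markers, LAA+ATRA libraries had 13400 to 14800 CPM, ATRA libraries 12900 to 13900 CPM, LAA libraries 5950 to 6240 CPM and vehicle libraries 5590 to 5850 CPM. Among the markers of other cells reported here, CD3D, CD3E, CD8A, KLRD1, MS4A1, TNFRSF17, HBB, ALAS2 and PF4 had no counts in any library, while CD79A had 5.31 to 7.8 CPM, PAX5 4.23 to 12.1 CPM and PECAM1 56.9 to 110 CPM. The part of these marker shifts in the results for the NAD genes was not tested.

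The promoters of the genes with the largest rise and the largest fall under ATRA, CD38 and NMNAT3, are shown as the ends of the range among the 9 genes. The sequences are the bases before the first annotated exon, 5′ to 3′ on the gene's strand, from RefSeq on GRCh38.p14, and 7 of the 9 genes had an entry in that table. Capitals mark matches to the nuclear receptor half-site, searched as AGGTCA, as its variant GGGTCA, as a further variant written AGTTCA and as a last variant written GGTTCA, or to the GC box, searched as GGGCGG, each on both strands.
CD38, chr4:15778078-15778274, plus strand: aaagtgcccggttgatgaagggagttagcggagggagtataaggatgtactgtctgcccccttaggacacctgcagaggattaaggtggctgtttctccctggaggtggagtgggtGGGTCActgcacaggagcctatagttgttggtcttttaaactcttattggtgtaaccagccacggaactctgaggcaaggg
NMNAT3, chr3:139678018-139678222, minus strand: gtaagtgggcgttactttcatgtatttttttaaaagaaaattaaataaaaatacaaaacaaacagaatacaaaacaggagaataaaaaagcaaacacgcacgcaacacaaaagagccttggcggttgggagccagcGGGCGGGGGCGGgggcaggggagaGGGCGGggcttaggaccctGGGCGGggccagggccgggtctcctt
The CD38 window of 197 bases held 1 half-site, on the plus strand, and 0 GC boxes. Among 35116 promoters cut to the same window, 27.9% held a half-site and 34.3% a GC box. The NMNAT3 window of 205 bases held 4 GC boxes, none overlapping, and 0 half-sites, where 35.9% of promoters held a GC box and 29% a half-site. In the full 250 bases upstream of the other entries, NAMPT, which fell, held 1 half-site and 3 GC boxes. NADSYN1, which rose, held 0 half-sites and 5 GC boxes. The 3 start sites of NADK, which rose, held 0, 0 and 1 half-sites and 1, 4 and 0 GC boxes. NMNAT1, not called, held 0 half-sites and 1 GC box. The 2 start sites of QPRT, not called, held 0 and 1 half-sites and no GC box. The further NMNAT3 start site held 0 half-sites and 3 GC boxes. Over the same 250 bases, the NMNAT3 start site shown above held 0 half-sites and 6 GC boxes, and CD38 held 1 half-site and 0 GC boxes. No share of all promoters was taken at this length, and a link of motifs to the direction of change was not tested. These are letter matches in short windows, and the described element of CD38 lies outside them.

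ATRA raised both NAD-cleaving surface enzymes, NADSYN1 and NADK, and lowered NAMPT and NMNAT3. Of the 9 genes, 4 rose and 2 fell, where 42.9% of all genes tested were called, 21.9% higher and 21% lower. Calling required an adjusted p below 0.05 in edgeR's quasi-likelihood test. Where libraries are said not to overlap, the share of all genes so separated was not taken. With 2 libraries per group such separation says little: with LAA against vehicle 3 of the 9 genes were separated upward and 4 downward, none of them called. The 9 genes had a median log2 fold change of 0.286, against -0.0036 over all genes tested. These medians are a description only, because the genes were chosen with earlier results of these data known.

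CD38 (chr4:15778275-15853230, plus strand, GRCh38) had 253 and 227 CPM with ATRA, against 1.68 and 2.13 CPM in vehicle. The vehicle values rest on 35 and 44 estimated counts. The libraries did not overlap, and the difference was 125-fold (log2 fold change 6.97 ± 0.16, SE, adjusted p = 1.28e-10). On the log2(FPKM + 1) scale, where vehicle lies under the pseudocount, the difference shrank to 5.29 and was still called.

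BST1 (chr4:15702950-15738313, plus strand) lies 39961 bases upstream of CD38 and was already expressed in vehicle. It had 59.5 and 63.1 CPM with ATRA, against 30.1 and 26.3 CPM in vehicle, without overlap. The rise was 2.18-fold (log2 fold change 1.12 ± 0.11, adjusted p = 9.13e-06). FAM200B shares 2616 bases with BST1 on the same strand, and had 12.7 and 13.8 CPM with ATRA, against 6.4 and 6.6 CPM in vehicle (log2 fold change 1.03 ± 0.16, adjusted p = 0.000248). The shared bases are of whole gene spans, introns included, and shared exon sequence was not examined. How reads were divided between the overlapping pair was not examined either, so the BST1 values are uncertain to that extent.

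**Figure D1:**
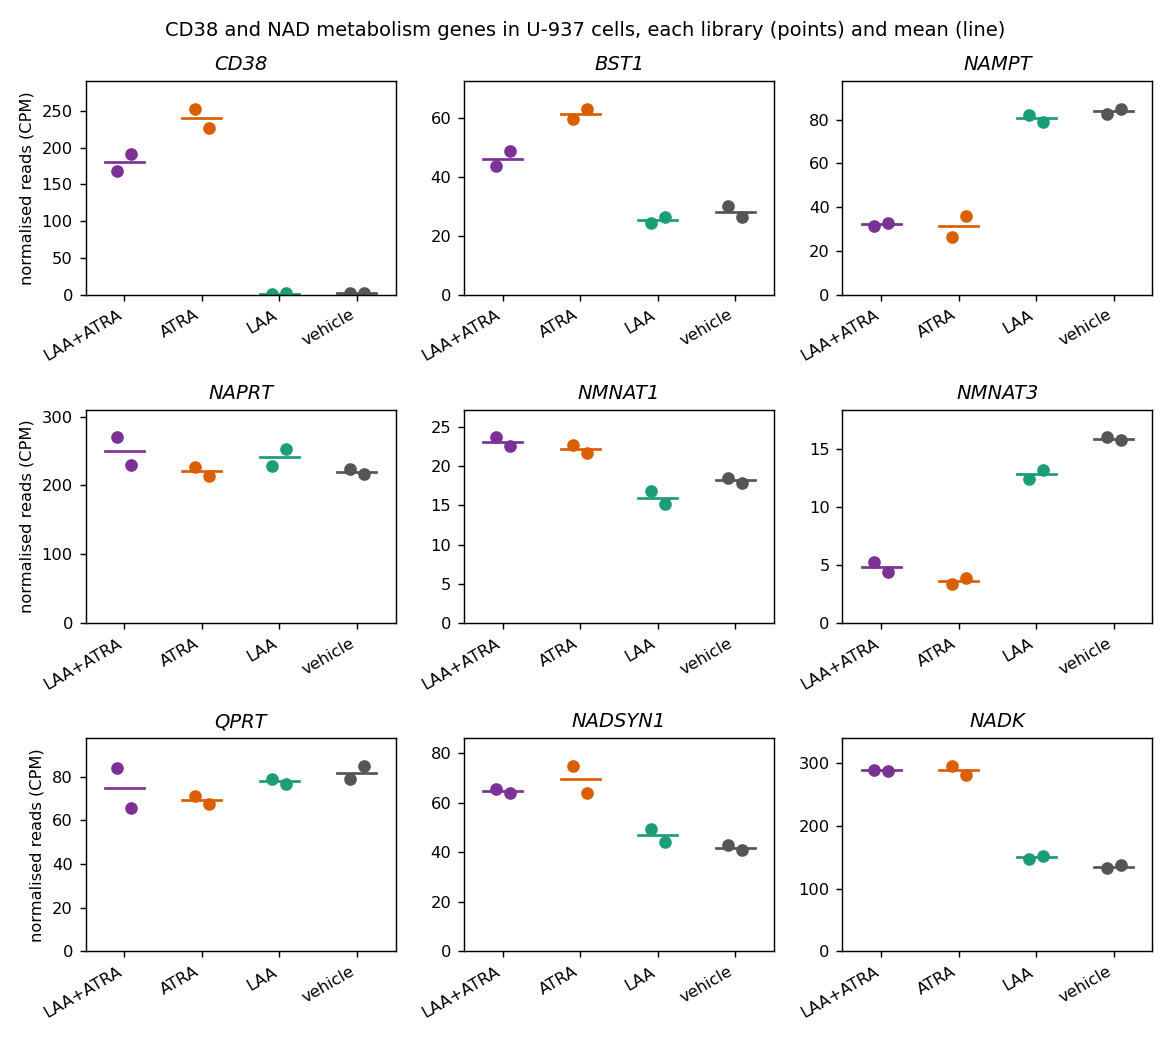
Normalised counts (CPM, vertical axes from 0, 1 panel per gene) of the 9 genes in the 8 libraries, with 1 point per library, a line at the group mean and groups from LAA+ATRA to vehicle. CD38 sits at 169 to 253 CPM in the 4 libraries with ATRA and at 1.29 to 2.13 CPM in the 4 without it.

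NAMPT (chr7:106248285-106286326, minus strand), the rate-limiting enzyme of nicotinamide salvage, had 26.5 and 36 CPM with ATRA, against 82.7 and 85 CPM in vehicle. Both ATRA libraries lay below both vehicle libraries, and NAMPT fell by 1.42 on the log2 scale (SE 0.13, adjusted p = 3.62e-06). A processed copy, NAMPTP1, held 10.1 to 53.2 counts per library and also fell (log2 fold change -1.72 ± 0.51, adjusted p = 0.0165), and reads of NAMPT and its copy may not be separable.

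NMNAT3 (chr3:139560180-139678017, minus strand), the mitochondrial adenylyltransferase, had 3.32 and 3.88 CPM with ATRA, against 16 and 15.8 CPM in vehicle. It had the largest fall of the 9 genes (log2 fold change -2.13 ± 0.18, adjusted p = 1.73e-06), with no overlap. An antisense gene across it, AC097103.2, had 19 to 70 counts per library and no call (log2 fold change -0.44 ± 0.44, adjusted p = 0.453), and the strand setting of the counting is not given in the sources used here.

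NMNAT1 (chr1:9943428-9985501, plus strand), the nuclear adenylyltransferase, had 22.7 and 21.7 CPM with ATRA, against 18.5 and 17.9 CPM in vehicle. Its libraries did not overlap, but the gene was not called (log2 fold change 0.29 ± 0.12, adjusted p = 0.0784). The nuclear and mitochondrial enzymes therefore had estimates of opposite sign, with only the mitochondrial one called.

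NADK (chr1:1751232-1780457, minus strand), the cytosolic NAD kinase, had 295 and 281 CPM with ATRA, against 132 and 137 CPM in vehicle. It rose 2.15-fold without overlap (log2 fold change 1.10 ± 0.092, adjusted p = 1.8e-06). NADSYN1 (chr11:71453109-71524107, plus strand), the glutamine-dependent NAD synthetase, had 74.8 and 64 CPM with ATRA, against 42.9 and 40.7 CPM in vehicle. The NADSYN1 libraries did not overlap, and it rose 1.66-fold (log2 fold change 0.73 ± 0.11, adjusted p = 0.000187).

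QPRT and NAPRT, the entry enzymes that feed nicotinic acid mononucleotide, were not called under ATRA. QPRT (chr16:29679008-29698699, plus strand) had 71.1 and 67.4 CPM with ATRA, against 78.7 and 84.9 CPM in vehicle (log2 fold change -0.24, 95% interval -0.5 to 0.0183, adjusted p = 0.124), and its ATRA libraries lay below those of vehicle. NAPRT had 227 and 214 CPM with ATRA, against 224 and 216 CPM in vehicle, with overlapping libraries (log2 fold change 0.00, 95% interval -0.228 to 0.233, adjusted p = 0.987). The authors' FPKM gave another picture of NAPRT: with LAA+ATRA it was 0.645 higher than in vehicle on the log2(FPKM + 1) scale (limma, adjusted p = 0.0123), where counts gave 0.18 (adjusted p = 0.18). The count per unit of FPKM for NAPRT, relative to the median gene of a library, was 0.461 to 0.554 with LAA+ATRA and 0.691 to 0.7 in vehicle, so the gene length behind the FPKM differed between those libraries.

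**Figure D2:**
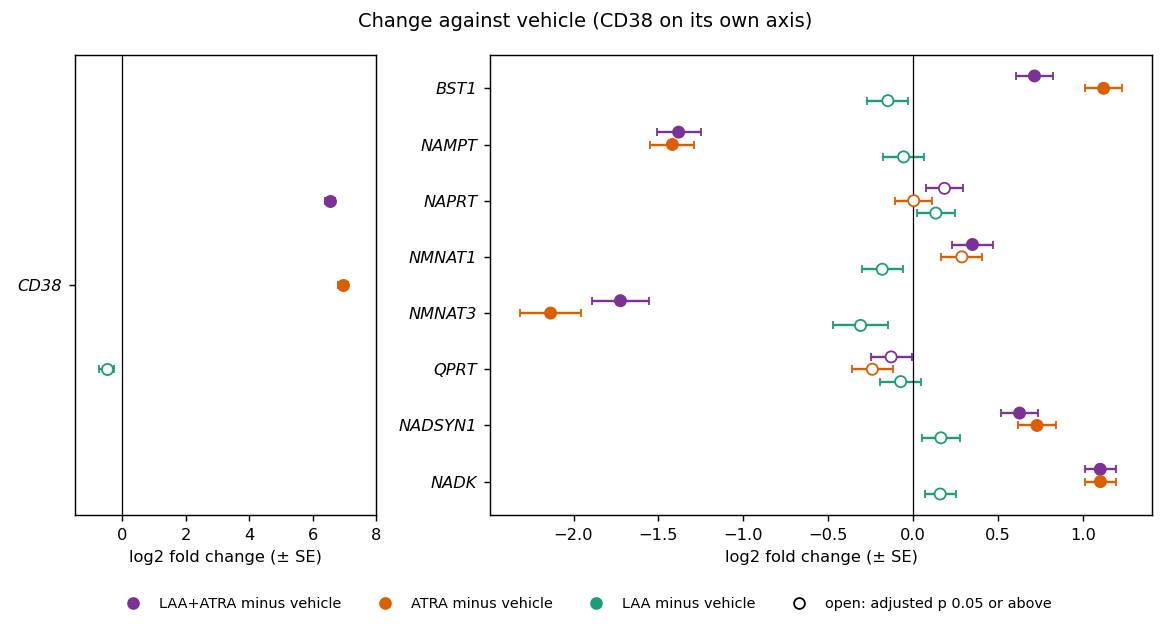
Log2 fold changes against vehicle of the 9 genes (horizontal axis, CD38 on its own axis) for LAA+ATRA, ATRA and LAA, with bars of ± SE and open points for values not called. For both groups with ATRA, CD38 stands at 6.56 and 6.97, BST1, NADK and NADSYN1 lie above 0, and NAMPT and NMNAT3 lie below it.

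LAA alone moved none of the 9 genes past the threshold. No gene was called higher or lower, where 0.0267% of all genes tested were called, 0.02% higher and 0.00667% lower. CD38 had 1.29 and 1.42 CPM with LAA, against 1.68 and 2.13 CPM in vehicle, on 26 and 27 counts with LAA. Both LAA libraries lay below both vehicle libraries (log2 fold change -0.49 ± 0.24, 95% interval -1.01 to 0.0253, adjusted p = 0.289). NMNAT3 had 12.4 and 13.2 CPM with LAA, against 16 and 15.8 CPM in vehicle (log2 fold change -0.31 ± 0.16, 95% interval -0.658 to 0.038, adjusted p = 0.321). At unadjusted p under 0.05 the whole table gave 2833 genes in this comparison, and its count of called genes moved widely with the processing, but no alternative called a member.

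With both compounds against vehicle, 5 genes were higher and 2 lower, where 44.7% of all genes were called, 23.1% higher and 21.5% lower. The 6 genes called with ATRA alone were among them, in the same directions. This comparison shares its vehicle libraries with ATRA alone. CD38 had 169 and 192 CPM with LAA+ATRA, against 1.68 and 2.13 CPM in vehicle (94.4-fold, adjusted p = 2.14e-10). NAMPT had 31.5 and 32.9 CPM with LAA+ATRA, against 82.7 and 85 CPM in vehicle (log2 fold change -1.38 ± 0.13, adjusted p = 5.02e-06). NMNAT1 was also called (log2 fold change 0.35 ± 0.12, adjusted p = 0.0351), but 11 of its 16 alternatives ended that call. Against LAA alone, LAA+ATRA again gave 5 higher and 2 lower, where 36.4% of all genes were called, 18.4% higher and 18% lower, with CD38 133-fold higher (adjusted p = 1.91e-10). The calls of NMNAT1 and NADSYN1 in this comparison each ended under 4 of 16 alternatives, the 3 on FPKM and the one without LAA replicate 2, which left 5 genes called.

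LAA added to ATRA changed no gene of the 9 past the threshold, where 1.01% of all genes tested were called, 0.493% higher and 0.52% lower. CD38 had 169 and 192 CPM with LAA+ATRA, against 253 and 227 CPM with ATRA. The gene missed the threshold (0.753-fold, log2 fold change -0.41 ± 0.11, 95% interval -0.643 to -0.174, adjusted p = 0.0808). Its libraries did not overlap, and of the 9 genes 2 were separated upward and 2 downward in this way.

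The estimate for BST1 was of like size, with 43.6 and 48.8 CPM with LAA+ATRA against 59.5 and 63.1 CPM with ATRA (0.754-fold, log2 fold change -0.41 ± 0.11, 95% interval -0.65 to -0.165, adjusted p = 0.0891). Both genes were called by DESeq2, at adjusted p = 0.0144 for CD38 and 0.0484 for BST1, and by edgeR without the low-count filter. Each was called under only these 2 of its 16 alternatives. Over all genes, DESeq2 called 672 of 8176 and edgeR without the filter 903 of 25862. NADK was nearly level, with 289 and 287 CPM with LAA+ATRA against 295 and 281 CPM with ATRA (log2 fold change 95% interval -0.198 to 0.195), and NAMPT had an interval of -0.249 to 0.323.

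The interaction asks whether the effect of LAA differed with and without ATRA. It called none of the 9 genes, where 0.00667% of all genes were called, 0.00667% higher and 0% lower. NMNAT3 had the largest estimate (0.72 ± 0.25 on the log2 scale, 95% interval 0.182 to 1.26, adjusted p = 0.856). CD38 was at 0.09 ± 0.26 (95% interval -0.476 to 0.648, adjusted p = 1), an interval too wide to show that LAA acted alike in both settings.

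**Figure D3:**
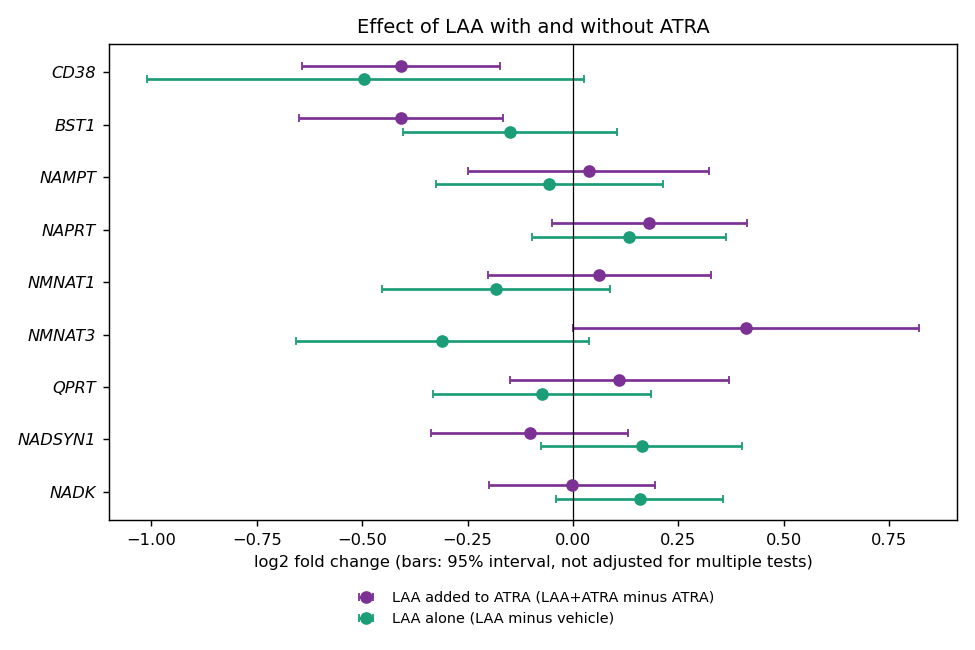
Log2 fold changes for adding LAA to ATRA (LAA+ATRA minus ATRA) and for LAA alone (LAA minus vehicle), for each of the 9 genes. Bars are 95% intervals derived from the F statistic of the edgeR test. CD38 and BST1 lie near -0.41 with ATRA present, and no gene of the 9 was called in either comparison.

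Compared per length, on the authors' FPKM, CD38 was the lowest of the 9 genes in both groups without ATRA and ranked 3 with ATRA and 4 with LAA+ATRA. CD38 averaged 43.3 ± 3.66 FPKM with LAA+ATRA, 58 ± 4.66 FPKM with ATRA, 0.333 ± 0.127 FPKM with LAA and 0.513 ± 0.145 FPKM in vehicle (SD, n = 2 each). With ATRA the order ran from NAPRT at 203 ± 48.2 FPKM and NADK at 123 ± 8.33 FPKM to CD38, then BST1 at 50.8 ± 2.96 FPKM, and down to NMNAT3 at 2.45 FPKM. Neighbouring genes in that order overlapped between libraries in LAA+ATRA, for QPRT with CD38 and BST1 with NADSYN1, and in vehicle for NADSYN1 with BST1. The ratio of CD38 to NAMPT in FPKM was 2.67 and 3.38 with LAA+ATRA and 4.94 and 3.9 with ATRA. It was 0.00682 and 0.0114 in LAA libraries and 0.0104 and 0.0161 in vehicle libraries.

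**Figure D4:**
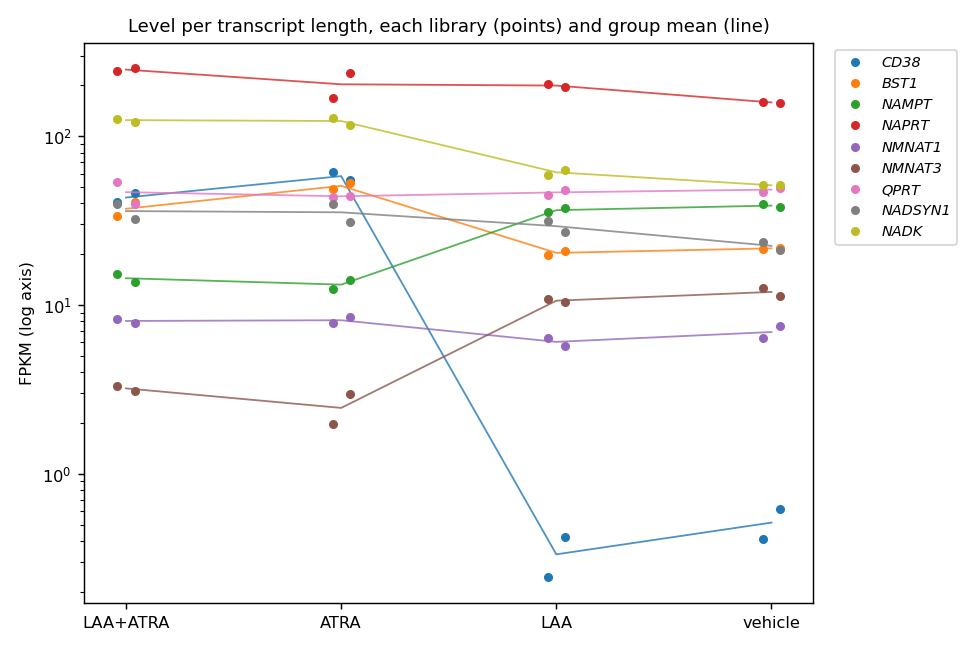
Expression per length (FPKM, log axis) of the 9 genes in each group, with 1 point per library and lines through the group means. NAPRT and NADK are the highest in every group, and CD38 is the lowest with LAA and in vehicle.

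By Pearson correlation of log2 CPM over the 8 libraries with 13249 other genes, the genes most like CD38 were SLA (0.9995), CTSD (0.9993), PTGS1 (0.9982), GRN (0.9982) and CD68 (0.9981). CTSD is a lysosomal protease and CD68 a macrophage marker. A total of 144 genes passed 0.99, and with 4 libraries high and 4 low this measure mostly separates libraries with ATRA from those without. SLA had 422 and 444 CPM with LAA+ATRA and 522 and 541 CPM with ATRA. Without ATRA it had 47.4 and 50.8 CPM in LAA libraries and 54.8 and 61.7 CPM in vehicle libraries. The order of groups was that of CD38, which choosing SLA by its correlation with CD38 favoured. NADK was most like CYBB (0.9989), the catalytic subunit of the phagocyte NADPH oxidase, NAMPT like WDR43 (0.9989), BST1 like FYTTD1 (0.9971) and NMNAT3 like CST7 (0.9958).

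The other genes of NAD metabolism, from 6 lists of 78 symbols, were split. Under ATRA 16 rose and 18 fell of 57 identifiers tested, where 42.9% of all genes were called, with a median log2 fold change of 0.0746. LAA alone called none of them, where 0.0267% of all genes tested were called. Adding LAA to ATRA called 1 of the 57, PARP4, where 1.01% of all genes tested were called. PARP4 had 59 and 54.4 CPM with LAA+ATRA against 90.4 and 85.9 CPM with ATRA (log2 fold change -0.64 ± 0.1, adjusted p = 0.0232), a call that 9 of its 16 alternatives ended. With LAA against vehicle its estimate was also negative and not called (log2 fold change -0.36 ± 0.1, adjusted p = 0.096).

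In the list for extracellular NAD and adenosine, 1 of 7 tested genes rose and 5 fell under ATRA, where 21.9% of all genes tested rose and 21% fell. The list is not limited to the outside of the cell. It also holds the purine enzymes ADA and PNP, and PNP was among the genes that fell. The adenosine receptor ADORA2A rose to 11.2 and 9.71 CPM with ATRA, against 1.88 and 1.36 CPM in vehicle (6.44-fold, adjusted p = 5.2e-05). The nucleoside transporter SLC29A1 had 122 and 126 CPM with ATRA, against 188 and 184 CPM in vehicle (log2 fold change -0.59 ± 0.099, adjusted p = 0.000467). P2RX7, an ATP-gated channel, fell (log2 fold change -1.06 ± 0.25, adjusted p = 0.00414), and ART3, of the ADP-ribosyltransferase family, fell (-1.71 ± 0.36, adjusted p = 0.00213). NT5E and ENPP1 had no counts in any library.

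In the tryptophan route 3 of 8 tested identifiers rose and 2 fell, beside the same 21.9% and 21% of all genes. KMO, the kynurenine hydroxylase, had 1.82 and 5.05 CPM with ATRA, against 0.193 and 0.194 CPM in vehicle (17.4-fold, adjusted p = 0.000407), and the 2 ATRA libraries lay far apart. The vehicle libraries held 7.9 estimated counts of KMO in total, so its fold is uncertain. All 16 alternatives called KMO, with log2 fold changes from 1.4 to 4.67. HAAO, which makes the substrate that precedes quinolinic acid, rose 1.74-fold (adjusted p = 0.000734). KYAT1, a kynurenine aminotransferase, fell (log2 fold change -1.41 ± 0.2, adjusted p = 0.000122), while a second identifier with that symbol, at most 1.85 CPM in any library, rose (3.82 ± 1.2, adjusted p = 0.0234). AFMID, the formamidase that follows the opening step, fell (-0.63 ± 0.17, adjusted p = 0.00992), a call that 4 of its 16 alternatives ended. Of the enzymes that can open tryptophan breakdown, IDO1 and IDO2 had no counts in any library. TDO2 had 7 and 18 counts with ATRA, against 5 and 0 counts in vehicle, and was not called (adjusted p = 0.118).

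For NADP and mitochondrial NAD, 1 of 6 rose and 2 fell, counts near the 21.9% and 21% of all genes. NADK2, the mitochondrial NAD kinase, had 17 and 20.7 CPM with ATRA, against 44.9 and 39.8 CPM in vehicle (log2 fold change -1.17 ± 0.15, adjusted p = 6.94e-05), the opposite direction to cytosolic NADK. In FPKM the ratio of NADK to NADK2 was 24.4 and 19.3 with ATRA, against 3.66 and 3.98 in vehicle. NNT, the mitochondrial transhydrogenase, fell by 0.51 on the log2 scale (SE 0.097, adjusted p = 0.00105), and NAXD, an NADHX repair enzyme, rose 1.51-fold (adjusted p = 0.00403). Among the salvage genes, neither NMRK1 nor NMNAT2 was called (adjusted p = 0.834 and 0.59).

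The list of intracellular NAD consumers also holds ADP-ribose hydrolases, which do not consume NAD, among them PARG and MACROD1. Of its 26 tested genes, 8 rose and 8 fell, where 21.9% of all genes rose and 21% fell. PARP10 had 141 and 119 CPM with ATRA, against 50 and 43.4 CPM in vehicle (log2 fold change 1.48 ± 0.13, adjusted p = 2.01e-06), and PARP14 rose 1.81-fold (adjusted p = 4.54e-05). Both are mono-ADP-ribosyltransferases. MACROD1, an ADP-ribose hydrolase, had 35.8 and 34 CPM with ATRA, against 97.4 and 92.5 CPM in vehicle (log2 fold change -1.44 ± 0.1, adjusted p = 5.51e-07), and PARP16 fell (-1.31 ± 0.12, adjusted p = 3.98e-06). PARP1, chosen after its values were seen, had 244 and 233 CPM with ATRA, against 401 and 375 CPM in vehicle (log2 fold change -0.70 ± 0.097, adjusted p = 0.000103).

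Of the calcium channels and partners that CD38 products act on, 3 of 8 rose and 1 fell, again beside 21.9% and 21% of all genes. TPCN1, an endolysosomal channel, rose 1.43-fold (adjusted p = 0.00367), while TRPM2, gated by ADP-ribose, was only just called (log2 fold change 0.28 ± 0.11, adjusted p = 0.0496), a call that 11 of its 16 alternatives ended. FKBP1A rose 1.33-fold (adjusted p = 0.00685) and JPT2 fell (-0.32 ± 0.1, adjusted p = 0.0209). The calls of ART3, P2RX7, TPCN1, FKBP1A and JPT2 each ended under 1 to 3 of their 16 alternatives.

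**Figure D5:**
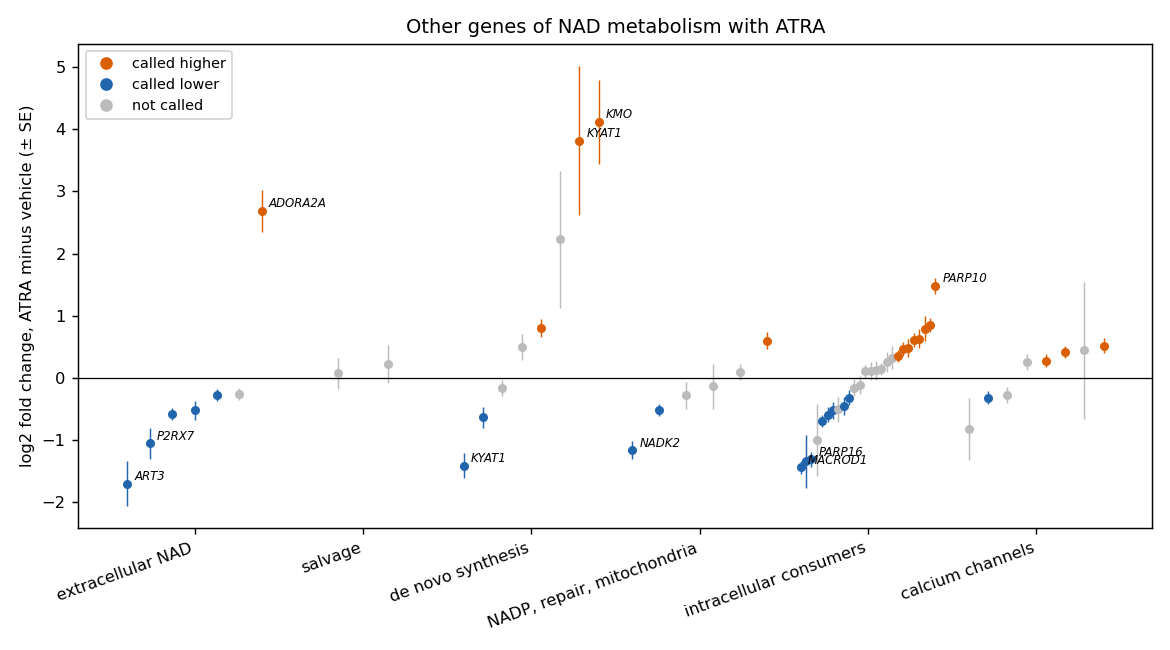
Log2 fold changes for ATRA minus vehicle of the tested genes of 6 NAD lists, 1 point per identifier with bars of ± SE, grouped by list and coloured by call, so that KYAT1 appears for each of its 2 identifiers. Called genes lie on both sides of 0 in 5 lists, from KMO at 4.12 to ART3 at -1.71, and the salvage list holds none.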

How the data were processed

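The authors deposited estimated counts and FPKM per gene for 8 poly-A libraries, and the submitters' processing notes list Salmon 1.8.0 and DESeq2 1.36.0, with builds GRCh38 and hg38. Not given in the sources used here are annotation release, strand setting and FPKM scaling. Estimated counts, as deposited, were rounded, which changed 16.5% of values, and tested in edgeR 4.0.16 under R 4.3.3: filterByExpr, TMM, 4 group means and a quasi-likelihood F test, two-sided, with Benjamini-Hochberg adjustment over 14995 genes, 4 residual and 8.2 prior degrees of freedom. The deposited FPKM values were tested as an alternative with limma 3.58.1 on log2(FPKM + 1), which understates the change of low genes. Other alternatives were DESeq2 1.42.0, RLE scaling, no low-count filter, a replicate block, only the libraries compared, and leaving out each library. The tests were also run on simulated counts, and the outcome is not reported here. That simulation held no small changes, no changed genes at low counts and no unequal spread between groups. Symbols came with the deposited values, positions from GENCODE 29 (GRCh38), and promoters from RefSeq, with the printed windows cut at the first GENCODE 29 exon. Members and gene lists were chosen with earlier results of these data known. From each list the text names up to 4 called genes by adjusted p, or the 2 most abundant where none was called, and PARP4. ADA and PNP are named only to describe their list. Intervals are 95%. Some marker genes are not reported here.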

Additional observations from a re-analysis of the deposited data

How the results depend on the processing

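The 6 member calls under ATRA against vehicle held in the same direction under all 16 alternatives. NAPRT, near 0 and never called there, ran from -0.0322 to 0.342. No member was called with LAA alone or in the interaction under any alternative. For LAA+ATRA against ATRA, members called went to 2 (CD38 and BST1) with no low-count filter and to 2 with DESeq2. QPRT with LAA+ATRA against vehicle turned from -0.13 to 0.0362 (adjusted p = 0.83) without LAA+ATRA replicate 2, and leaving out a library each gave -0.311 to 0.0362. Called genes over the whole table, with LAA against vehicle, were 828 with no filter, 681 with DESeq2, 2187 with only the libraries compared, 2 with log2(FPKM + 1), 7 without the FPKM filter, and 0 to 469 leaving out a library, against 4. For LAA+ATRA against ATRA they were 903, 672, 15, 6 and 27 in the same order, 4 with log2(FPKM + 0.1) and 6 to 172 leaving out a library, against 152. For the interaction they were 136 with no filter, 13 with DESeq2, 2 with log2(FPKM + 1), 3 with log2(FPKM + 0.1), 10 without the FPKM filter and 1 to 15 leaving out a library, against 1. Without the FPKM filter 4163 genes were called with ATRA, 4334 with LAA+ATRA, both against vehicle, and 3352 with LAA+ATRA against LAA. The cause was not tested. Between replicates, the median absolute log2 difference over genes was 0.204 with LAA+ATRA, 0.209 with ATRA, 0.144 with LAA and 0.128 in vehicle. The main fit shared a single spread per gene over these groups, so its SEs and intervals average over unequal spread. Replicate numbers did not pair the libraries: replicate differences correlated between groups at -0.0727 to 0.0771 over 14995 genes. A replicate block gave 2 called genes with LAA against vehicle and 30 with LAA+ATRA against ATRA, and changed no member call. With 2 libraries per group and 26 to 44 CD38 counts in the libraries without ATRA, small differences of CD38 with LAA are limited by depth.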
